A study of Mus musculus with 6 samples.

Results

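The thin filament genes described here are 10 of the 54532 Ensembl genes in the count table: the troponin T genes *Tnnt1* and *Tnnt2*, the troponin I genes *Tnni1* and *Tnni3*, the troponin C gene *Tnnc1*, the tropomyosin genes *Tpm1*, *Tpm2* and *Tpm3*, and *Lmod2* and *Tmod1*, which encode leiomodin and tropomodulin. They were chosen by name, as the rows whose Ensembl identifiers carry these symbols in GENCODE M21, and all 10 were found. Poly-A nuclear RNA of cardiomyocytes (CMs) was sequenced from postnatal hearts that overexpressed (OE) GFP or either of 2 mutant forms of YAP, the transcriptional coactivator held in check by the Hippo pathway. All mice were wildtype ICR animals that received 1e+11 viral genomes of AAV9 under the skin at P6, and their hearts were collected at P9, 3 d later. The viruses carried cTnT-GFP, cTnT-YAP5SA or cTnT-YAP6SA. In YAP5SA the serines that LATS kinases phosphorylate are changed to alanine, and YAP6SA carries a further serine-to-alanine change that disrupts its binding to TEAD. Control and YAP hearts therefore all carried an AAV9 cassette driven by the promoter of cTnT, the cardiac troponin T that *Tnnt2* encodes. CM nuclei were enriched by pulldown of PCM1, a protein of the CM nuclear envelope. There were 2 libraries of each group, 1 in each of 2 batches, and 2 hearts were collected for each virus, so the p-values below measure only the spread between these libraries.

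In striated muscle, tropomyosin lies along the actin filament and covers the sites to which myosin binds. The troponin complex moves it away when calcium binds: troponin C senses calcium, troponin I inhibits, and troponin T ties the complex to tropomyosin. Tropomodulin caps the pointed end of the filament and leiomodin promotes elongation there. The mouse heart replaces the slow skeletal troponin I of the fetus (*Tnni1*) by the cardiac form (*Tnni3*) around and after birth, whereas *Tnnt1* encodes the troponin T of slow skeletal muscle.

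The deposited values were reads per gene, with 14552847 to 19615627 reads on genes in a library, and the 10 genes held 1.89% to 2.97% of them. Levels are given in CPM, which are read counts scaled to the library's reads on genes with TMM factors, and levels of different genes are compared only in RPKM, which is CPM per kb of annotated exon. Groups were compared with edgeR's quasi-likelihood test in one model of all 6 libraries with batch as a term, over the 13323 genes with a median log2 CPM above 1 in at least 1 group. All 10 genes were among them. FDR is the Benjamini-Hochberg adjusted p over all those genes, and a gene was called when it was under 0.05. Of the CM markers looked at (8 genes), all were detected, with a summed level of 42414 and 58389 CPM in GFP, 40154 and 49426 CPM in YAP6SA OE CMs and 32689 and 23845 CPM in YAP5SA OE CMs. The mouse gene *Yap1* was not called in any comparison, with 120 to 134 CPM as group means. Whether reads of the YAP cassettes are counted on this gene was not tested, so its level does not measure their expression.

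In YAP5SA OE CMs, the 3 tropomyosin genes rose against GFP and *Tnnt1* and *Lmod2* fell. That made 5 of 10 genes called, against 22% of all genes tested (12.8% higher and 9.18% lower). In YAP6SA OE CMs, 0 of the 10 genes were called by the quasi-likelihood test, where 0.045% of all genes were called. At an unadjusted p under 0.05 there was 1, *Tpm1*, against 5.93% of all genes. It was called in 3 of 9 other fits, DESeq2 among them. Against YAP6SA, 1 gene was higher in YAP5SA OE CMs (*Tpm3*) and 2 were lower (*Tnnt1* and *Tmod1*), 3 of 10 against 14.7% of all genes (9% higher and 5.68% lower). Unadjusted p under 0.05 held for 7 of 10 genes in YAP5SA against GFP (36.4% of all genes) and for 6 of 10 against YAP6SA (30.8% of all genes). The median log2 fold change of the 10 genes was 0.12 for YAP6SA against GFP, -0.17 for YAP5SA against GFP and -0.37 for YAP5SA against YAP6SA, while the medians over all genes were 0.00, -0.00 and -0.01. Both comparisons with GFP use the same GFP libraries. In bulk RNA, fewer cells of a type and less RNA per cell cannot be told apart.

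**Figure D1:**
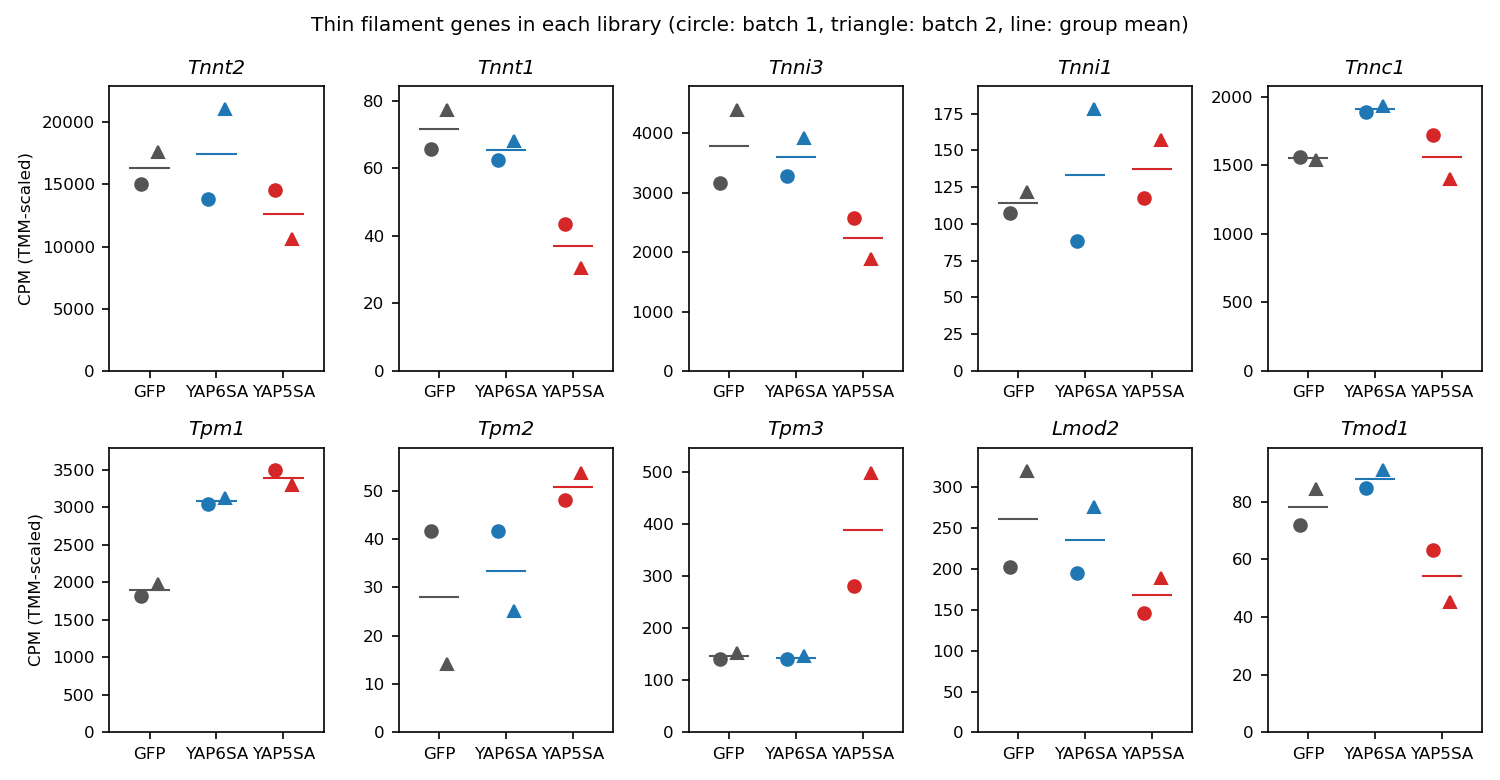
Level of each thin filament gene in CPM (TMM-scaled read counts) in GFP, YAP6SA and YAP5SA CMs. Circles are batch 1 libraries, triangles are batch 2 libraries and lines are group means. *Tpm3* lies between 141 and 153 CPM in the GFP and YAP6SA libraries and at 281 and 498 CPM in the YAP5SA libraries, and *Tpm1* is at 1813 and 1984 CPM in the GFP libraries and between 3050 and 3499 CPM in the others.

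*Tpm3* (ENSMUSG00000027940, chromosome 3 of GRCm38, 90072649 to 90100902, plus strand) encodes the tropomyosin of slow skeletal fibres and, from an internal promoter, shorter cytoskeletal forms. The counts are per gene and do not separate these forms. RefSeq places 2 starts in the gene, and the bases before each are shown because this gene had the lowest FDR of the 10 in YAP5SA OE CMs. The first stretch ends where the first GENCODE exon begins, and no base is in capitals because none of the motifs searched below was present.
Tpm3 first start, chr3:90072401-90072648, plus strand: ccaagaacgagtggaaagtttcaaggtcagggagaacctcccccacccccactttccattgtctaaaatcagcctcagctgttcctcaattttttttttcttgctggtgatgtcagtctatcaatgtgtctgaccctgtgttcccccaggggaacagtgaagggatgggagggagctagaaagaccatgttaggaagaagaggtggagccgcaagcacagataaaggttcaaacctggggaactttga
Tpm3 second start, chr3:90079271-90079520, plus strand: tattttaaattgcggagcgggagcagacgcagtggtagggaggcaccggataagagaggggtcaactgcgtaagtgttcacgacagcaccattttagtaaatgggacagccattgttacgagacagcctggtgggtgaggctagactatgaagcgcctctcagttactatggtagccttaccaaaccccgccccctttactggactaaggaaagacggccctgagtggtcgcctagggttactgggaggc

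Given in the order batch 1 and batch 2 here and below, *Tpm3* had 141 and 153 CPM with GFP, 141 and 146 CPM with YAP6SA, and 281 and 498 CPM with YAP5SA (2691, 2352, 2774, 2416, 4255 and 8923 counts). The GFP and YAP6SA libraries were close to each other and both YAP5SA libraries stood above them. The mean was 147 ± 8.53 CPM in GFP (SD, n = 2), 143 ± 3.77 CPM in YAP6SA and 390 ± 154 CPM in YAP5SA. *Tpm3* was up-regulated 2.58-fold in YAP5SA OE CMs against GFP (log2 fold change 1.37, standard error 0.20, edgeR FDR 0.00204) and 2.64-fold against YAP6SA (FDR 0.00246). The log2 difference from GFP was 0.99 in batch 1 and 1.70 in batch 2. With YAP6SA the log2 difference from GFP was -0.03 (FDR 0.989), with -0.00 and -0.07 in the batches. The call against GFP held in 9 of 9 other fits and with each of the 6 libraries left out, whereas the call against YAP6SA was lost without the batch 2 YAP6SA library (log2 1.19, FDR 0.0517). Reads can also fall on the near-identical retrocopy *Tpm3-rs7*, which had 14, 16, 11 and 15 counts with GFP and YAP6SA, and 19 and 53 with YAP5SA. Reads that mapped to several places were 2.90% to 4.19% of a library and most frequent in the batch 2 YAP5SA library. Their part in the difference was not tested.

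The genes whose log2 CPM followed *Tpm3* most closely over the 6 libraries, among the 9894 genes whose log2 CPM averaged 3 or more, were *Cdk5rap2* (Pearson's r 0.999), *Stk4* (0.999) and *Pef1* (0.998). This is a description over 6 libraries in which the pair of YAP5SA libraries set most of the spread.

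*Tpm1* (ENSMUSG00000032366, chromosome 9, 67022590 to 67049406, minus strand) encodes the main tropomyosin of the heart. It had 1813 and 1984 CPM in GFP, 3050 and 3129 CPM in YAP6SA and 3499 and 3293 CPM in YAP5SA libraries (34613, 30494, 60158, 51799, 53007 and 58956 counts). Every YAP6SA and YAP5SA library was above both GFP libraries, and the replicates of a group lay close together. The rise in YAP5SA OE CMs was 1.79-fold (log2 0.84, standard error 0.21, FDR 0.0186), with 0.95 and 0.73 in the batches. The YAP6SA value was 1.63-fold that of GFP (log2 0.70, standard error 0.21), with 0.75 and 0.66 in the batches. Its unadjusted p was 0.00689 and its FDR 0.592, so it was not called in the fit of 6 libraries. It was called in 3 of 9 other fits: of only the 4 libraries compared (FDR 0.00158), with no filter on low counts (FDR 0.00199) and by DESeq2 (FDR 0.0200). It was not called in the others (FDR up to 0.998). The 3 fits called 276, 145 and 55 genes over all genes, against 6 in the fit of 6 libraries. With 1 library left out, the log2 value ran from 0.62 to 0.78. The YAP5SA call, in turn, was lost in the fit of 4 libraries (FDR 0.0943), without the batch 1 or batch 2 GFP library (log2 0.77 and 0.92, FDR 0.163 and 0.15), and without either YAP6SA library (FDR 0.101 each). YAP5SA and YAP6SA OE CMs differed by 0.14 on the log2 scale (FDR 0.701). *Tpm1* was thus the 1 gene of the 10 with an unadjusted p under 0.05 in both comparisons with GFP.

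*Tpm2* (ENSMUSG00000028464, chromosome 4, 43514711 to 43523765, minus strand), the beta-tropomyosin gene of skeletal and fetal striated muscle, was the lowest of the 3 in counts. It had 41.7 and 14.2 CPM in GFP, 41.7 and 25.0 CPM in YAP6SA and 48.1 and 53.6 CPM in YAP5SA libraries (796, 219, 822, 414, 728 and 960 counts). The GFP and YAP6SA libraries of batch 2 were low, and the YAP5SA libraries were above both groups. It was called higher in YAP5SA OE CMs (2.06-fold, log2 1.04, standard error 0.32, FDR 0.0453), but the log2 difference was 0.20 in batch 1 and 1.90 in batch 2. Without the batch 2 GFP library the value was 0.44 (FDR 0.479), and without the batch 2 YAP5SA library it was 0.40 (FDR 0.293). Without the batch 1 GFP library it was still called, at 1.72, and without the batch 1 YAP5SA library at 1.68. With the batch term (the replicate block) left out, it was 0.86 (FDR 0.192). With YAP6SA it was 0.33 (FDR 0.929).

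Summed per length, *Tpm1*, *Tpm2*, *Tpm3* and the cytoskeletal *Tpm4* came to 330 and 344 RPKM in GFP, 529 and 525 in YAP6SA and 638 and 654 in YAP5SA libraries. The 3 groups did not overlap, and the replicates differed by less than the groups (337 ± 9.90, 527 ± 2.28 and 646 ± 11.3 RPKM, SD, n = 2). *Tpm1* made up 84.7% and 89.0% of this sum in GFP, 89.0% and 91.8% in YAP6SA and 84.6% and 77.7% in YAP5SA libraries. The share of *Tpm3* was 7.02% and 7.31% in GFP, 4.37% and 4.56% in YAP6SA, and 7.24% and 12.5% in YAP5SA libraries. Relative to *Tpm1*, *Tpm3* was thus lower in both YAP6SA libraries than in GFP, by 0.75 and 0.73 log2 units, and in YAP5SA it differed from GFP by 0.05 in batch 1 and 0.97 in batch 2. No test was made on these sums and shares.

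**Figure D2:**
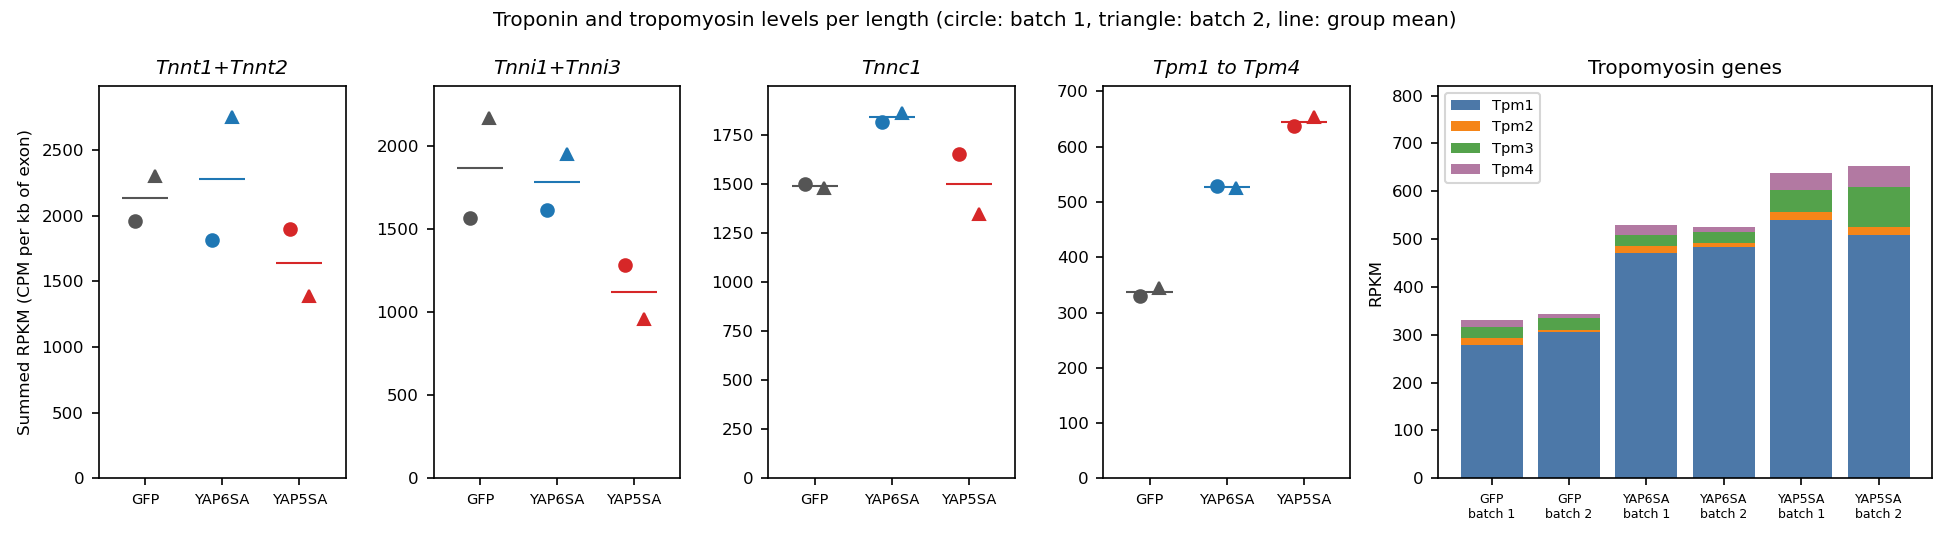
Summed level per length in RPKM (CPM per kb of exon) of the troponin T, I and C genes and of the tropomyosin genes in each library, and the makeup of the tropomyosin sum as stacked bars. Circles are batch 1, triangles batch 2 and lines group means. The tropomyosin sum lies at 330 and 344 RPKM in the GFP libraries and at 638 and 654 RPKM with YAP5SA, and *Tpm1* is the largest part in each library.

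Among the troponin T genes, *Tnnt2* (ENSMUSG00000026414, chromosome 1, 135836354 to 135852260, plus strand), the cardiac form, had the highest mean level per length of the 10 genes in all 3 groups. In the batch 1 YAP6SA library *Tnnc1* was above it (1817 against 1785 RPKM), and the YAP5SA libraries of the 2 genes overlapped. *Tnnt2* had 14993 and 17562 CPM in GFP, 13839 and 21088 CPM in YAP6SA and 14583 and 10636 CPM in YAP5SA libraries. Both YAP5SA libraries were below both GFP libraries, by little in batch 1. The log2 difference from GFP was -0.35 (standard error 0.32, FDR 0.464), with -0.04 and -0.72 in the batches, and it was called only without the batch 1 YAP5SA library (-0.81, FDR 0.00276). It turned to 0.07 without the batch 2 YAP5SA library. With YAP6SA it was 0.09 (FDR 0.976), with -0.12 and 0.26 in the batches. Whether reads of the AAV9 cassettes are counted on this gene was not tested.

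*Tnnt1* (ENSMUSG00000064179, chromosome 7, 4504570 to 4516382, minus strand), the slow skeletal form, had 65.8 and 77.2 CPM in GFP, 62.4 and 68.1 CPM in YAP6SA and 43.6 and 30.5 CPM in YAP5SA libraries (1256, 1187, 1231, 1128, 660 and 546 counts). Both YAP5SA libraries were below the other 4. *Tnnt1* fell in YAP5SA OE CMs to 0.516 of its level in GFP (log2 -0.96, standard error 0.20, FDR 0.00896) and to 0.565 of that in YAP6SA (log2 -0.82, FDR 0.0221). The difference from GFP was -0.59 in batch 1 and -1.34 in batch 2. It was called in 9 of 9 other fits, and was lost without the batch 2 GFP library (-0.75, FDR 0.116). Without the batch 2 YAP5SA library it was still called, at -0.61. The call against YAP6SA was lost without the batch 2 YAP6SA library (-0.70, FDR 0.223) or the batch 2 YAP5SA library (-0.48, FDR 0.103). In YAP6SA OE CMs *Tnnt1* differed from GFP by -0.13 (FDR 0.947). Per length it made up 1.52% of troponin T transcripts in each GFP library, 1.56% and 1.12% with YAP6SA, and 1.04% and 0.998% with YAP5SA.

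Among the troponin I genes, *Tnni3* (ENSMUSG00000035458, chromosome 7, 4518305 to 4524229, minus strand), the cardiac form, had 3171 and 4402 CPM in GFP, 3280 and 3929 CPM in YAP6SA and 2580 and 1887 CPM in YAP5SA libraries. The YAP5SA libraries were the 2 lowest of the 6. Its log2 difference from GFP in YAP5SA OE CMs was -0.75 (standard error 0.26, unadjusted p 0.0173) and missed the threshold by the quasi-likelihood test (FDR 0.0674). It was called in 3 of 9 other fits: by the likelihood ratio test (FDR 0.0137), by DESeq2 (FDR 0.00713) and with no filter (FDR 2.51e-05). It was not called in the others (FDR up to 0.171). With 1 library left out it ran from -1.16 to -0.34. Within the batches it was -0.30 and -1.22. Its gene lies 1.92 kb from *Tnnt1* and shares 86 exonic bases with *Dnaaf3* on the same strand, which had 89 to 515 counts in a library against 33782 to 67650 for *Tnni3*.

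*Tnni1* (ENSMUSG00000026418, chromosome 1, 135779434 to 135810989, plus strand), the fetal and slow skeletal form, had 107 and 121 CPM in GFP, 88.3 and 178 CPM in YAP6SA and 117 and 157 CPM in YAP5SA libraries. The groups overlapped, and the batch 2 library was the higher of each pair. The log2 difference from GFP was 0.24 in YAP5SA (FDR 0.411) and 0.15 in YAP6SA OE CMs (FDR 0.945), with -0.28 and 0.55 in the batches for YAP6SA. Per length, *Tnni1* made up 1.90% and 1.56% of troponin I transcripts in GFP, 1.52% and 2.53% in YAP6SA, and 2.54% and 4.55% in YAP5SA libraries. The ratio of *Tnni1* to *Tnni3* was above GFP in YAP5SA by 0.43 log2 units in batch 1 and 1.59 in batch 2. In YAP6SA OE CMs it differed from GFP by -0.33 and 0.72.

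*Tnnc1* (ENSMUSG00000091898, chromosome 14, 31208312 to 31211729, plus strand) encodes the troponin C of heart and slow muscle. It had 1560 and 1541 CPM in GFP, 1891 and 1935 CPM in YAP6SA and 1718 and 1401 CPM in YAP5SA libraries. The YAP6SA libraries were the 2 highest of the 6. YAP6SA OE CMs differed from GFP by 0.30 on the log2 scale (standard error 0.20, FDR 0.896), at 0.28 and 0.33 by batch. YAP5SA OE CMs differed by 0.00 (FDR 0.991), at 0.14 and -0.14 by batch. *Nisch* overlaps the gene on the other strand but shares no exonic base with it.

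At the pointed end, *Lmod2* (ENSMUSG00000029683, chromosome 6, 24597762 to 24605414, plus strand), the leiomodin of the heart, fell in YAP5SA OE CMs. The bases before its RefSeq start, up to the first GENCODE exon, are shown as those of a called gene. They held none of the motifs searched.
Lmod2, chr6:24597521-24597761, plus strand: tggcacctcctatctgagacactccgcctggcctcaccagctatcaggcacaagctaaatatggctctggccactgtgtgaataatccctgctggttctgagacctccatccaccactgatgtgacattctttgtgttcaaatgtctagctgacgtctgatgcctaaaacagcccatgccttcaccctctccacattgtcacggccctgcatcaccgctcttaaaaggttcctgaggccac
*Lmod2* had 202 and 320 CPM in GFP, 195 and 275 CPM in YAP6SA and 146 and 189 CPM in YAP5SA libraries (3851, 4915, 3842, 4555, 2212 and 3386 counts). In each group the batch 2 library was the higher one, and within each batch the order was GFP, YAP6SA, YAP5SA. The fall in YAP5SA OE CMs was to 0.654 of GFP (log2 -0.61, standard error 0.15, FDR 0.0197), with -0.47 and -0.76 in the batches. The call was lost without the batch term (the replicate block, FDR 0.131), without the batch 1 or batch 2 GFP library (FDR 0.0624 and 0.265) and without the batch 2 YAP5SA library (FDR 0.0531), at log2 values from -0.72 to -0.50. Against YAP6SA it was -0.48 (FDR 0.0644).

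*Tmod1* (ENSMUSG00000028328, chromosome 4, 46038935 to 46116032, plus strand), the tropomodulin of heart and red cells, had 72.0 and 84.5 CPM in GFP, 84.8 and 91.0 CPM in YAP6SA and 63.4 and 45.3 CPM in YAP5SA libraries. Both YAP6SA libraries were above both GFP libraries. The YAP5SA libraries were below the other 4. Between the YAP forms, *Tmod1* was lower with YAP5SA (0.616-fold, log2 -0.70, standard error 0.19, FDR 0.0343), with -0.42 and -1.0 in the batches. That call was lost without the batch term (FDR 0.0568), without the batch 1 or batch 2 YAP6SA library (FDR 0.0756 and 0.293) and without the batch 2 YAP5SA library (-0.37, FDR 0.205). Against GFP the log2 difference was -0.53 in YAP5SA (FDR 0.0690) and 0.17 in YAP6SA OE CMs (FDR 0.929). *Tmod1* shares 1287 exonic bases with *Tstd2* on the other strand, and the libraries carry no strand. Ambiguous reads were tallied apart from the genes (5.79% to 6.31% of a library). Reads on the shared bases may thus be missing from the counts of both genes, and their part in the *Tmod1* values was not tested.

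**Figure D3:**
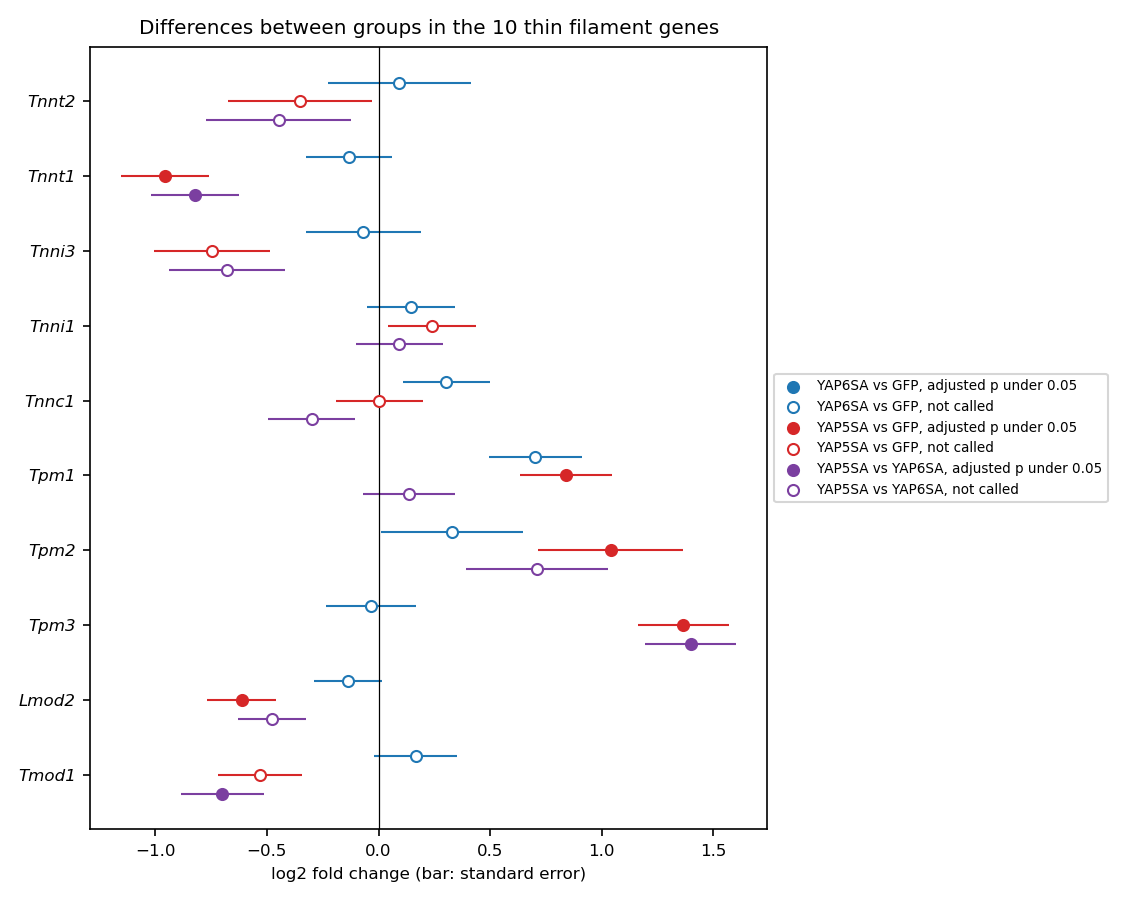
Log2 fold change of each thin filament gene in the 3 comparisons (x axis), with bars of 1 standard error from the edgeR model. Filled points have an adjusted p under 0.05: *Tnnt1*, *Lmod2*, *Tpm1*, *Tpm2* and *Tpm3* for YAP5SA against GFP, and *Tnnt1*, *Tmod1* and *Tpm3* for YAP5SA against YAP6SA, whereas all YAP6SA points against GFP are open.

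Levels per length set the same 5 genes ahead in each group. In GFP the means were 2100 RPKM for *Tnnt2*, 1835 for *Tnni3*, 1489 for *Tnnc1*, 293 for *Tpm1* and 132 for *Lmod2*. *Tnnt2* (SD 234, n = 2) and *Tnni3* (SD 422) overlapped in their libraries, as did *Tnni3* and *Tnnc1* in YAP6SA but not GFP libraries. Below them came *Tnnt1* at 32.4, *Tnni1* at 31.8, *Tpm3* at 24.2, *Tmod1* at 19.8 and *Tpm2* at 9.62 RPKM, of which *Tnnt1* and *Tnni1* did not differ beyond their spread. In YAP5SA OE CMs *Tpm3* had rank 6 at 64.0 RPKM, against rank 8 in GFP, and *Tnnt1* had rank 9 at 16.8 RPKM. With the longest transcript in place of all exons as the length, *Tpm3* had rank 5 in YAP5SA, above *Lmod2*.

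The changes were not of one size in the batches. In each comparison 8 of 10 genes had the larger absolute log2 difference in batch 2. The sign was the same in both batches for 6 of 10 genes for YAP6SA against GFP, 9 of 10 for YAP5SA against GFP and 8 of 10 for YAP5SA against YAP6SA. Of 20 other thin filament genes tested (below), 11, 17 and 17 had the larger difference in batch 2 in these comparisons. The same sign in both batches held for 14, 14 and 17 of those 20. Such shares were not counted over all genes. Groups did not overlap for 3 genes that were higher and 0 that were lower in YAP6SA than in GFP (17.3% and 17% of all genes, 34.3% in either direction). For YAP5SA against GFP this held for 3 higher and 5 lower genes (31.2% and 29.7% of all genes, 60.9% in either direction). Against YAP6SA it held for 3 higher and 5 lower genes too (28.6% and 28.9% of all genes, 57.6% in either direction).

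CATTCC, the M-CAT element to which TEAD factors bind, was searched on both strands in the 250 bases before each RefSeq start (GRCm38.p6), and so were the CArG box bound by SRF and TATAAA. The CArG box was searched as CCWWWWWWGG, where W is A or T, and runs with a mismatch were not counted for any motif. The 10 genes matched 13 starts. CATTCC lay before 4 of them, whereas 12.6% of all 32851 such windows held it. It lay 27 bases before the first *Tnnt2* start, 58 before *Tnnc1*, 56 before *Tpm1* and 163 before *Tmod1*, and was on the opposite strand (GGAATG) in *Tnnc1* and *Tpm1*. The CArG box was in 0 of the 13 windows (1.47% of all windows), and TATAAA in 1, that of *Tnnt1*, 30 bases before its start (12.4% of all windows). The matches are shown with 12 bases on each side, in capitals where the motif lies, since YAP6SA is changed at a serine needed for TEAD binding and these are the windows with a match. The *Tpm1* and *Tmod1* matches lie within exons of other GENCODE transcripts. A match is a run of letters and no measure of binding.
Tnnt2, chr1:135836295-135836324, plus strand: tctcctgctgcaCATTCCtccctccgcggg
Tnnc1, chr14:31208242-31208271, plus strand: tgggctgggctgGGAATGtagcaggaggtg
Tpm1, chr9:67049252-67049281, minus strand: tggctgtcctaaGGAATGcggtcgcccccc
Tmod1, chr4:46039047-46039076, plus strand: cagggaaccacaCATTCCcctgcctccggg
Tnnt1, chr7:4515988-4516017, minus strand: tcagcacctagcTATAAAtccagggggtgc

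Of 23 other thin filament genes that were looked at (actins, their caps, nebulins, cofilin and assembly factors, and the remaining troponin, tropomyosin, leiomodin and tropomodulin genes), 20 were tested. In YAP5SA OE CMs 5 were higher and 2 lower than in GFP, 7 of 20 against the 22% of all genes. *Neb*, which encodes the giant ruler protein nebulin of skeletal thin filaments, had 7.28 and 7.87 CPM in GFP, 9.02 and 12.1 CPM in YAP6SA and 28.3 and 50.3 CPM in YAP5SA libraries. Its rise was 4.99-fold against GFP (log2 2.32, standard error 0.25, FDR 0.000441) and 3.65-fold against YAP6SA (FDR 0.0015). *Tpm4* had 28.3 and 17.5 CPM in GFP, 46.2 and 22.7 CPM in YAP6SA and 77.8 and 100 CPM in YAP5SA libraries, and rose 4.09-fold against GFP (log2 2.03, FDR 0.00162) and 2.76-fold against YAP6SA (FDR 0.00933). Both genes had their highest levels in the YAP5SA libraries and were called against GFP in all fits and with each library left out. The *Tpm4* value against GFP was 1.39 on the log2 scale without the batch 2 YAP5SA library. The *Tpm4* call against YAP6SA was lost without the batch 2 YAP6SA library (log2 1.03, FDR 0.114), and without the batch 1 or batch 2 YAP5SA library it was still called, at 2.06 and 0.84.

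*Wdr1* and *Cfl2*, which act together in actin filament disassembly, rose in YAP5SA OE CMs by 0.83 (FDR 0.0047) and 0.84 (FDR 0.00648) on the log2 scale. Without the batch 2 GFP library they were not called (FDR 0.0555 and 0.0909). *Tmod3*, a tropomodulin of many cell types, rose by 0.91 (FDR 0.0337). *Lmod3*, the leiomodin of skeletal and heart muscle, fell by 0.78 (FDR 0.0147), and *Nebl*, the nebulin relative of the heart, fell by 0.90 (FDR 0.0184). Each of these 3 calls was lost without the batch 2 GFP library (FDR 0.341, 0.153 and 0.216) or the batch 2 YAP5SA library (FDR 0.257, 0.0709 and 0.0542). Within a family the signs could differ in YAP5SA OE CMs against GFP: *Nebl* fell and *Neb* rose, and *Tmod3* rose where *Tmod1* had a negative value that was not called.

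In YAP6SA OE CMs 0 of these 20 genes were called by the quasi-likelihood test, and 4 had an unadjusted p under 0.05 with positive values: *Acta1*, skeletal actin (log2 2.21, FDR 0.156), *Wdr1* (0.55, FDR 0.497), *Cfl2* (0.51, FDR 0.647) and *Actc1*, cardiac actin (0.61, FDR 0.804). Over all genes, 0.045% were called and 5.93% had an unadjusted p under 0.05. The fit of only the 4 libraries compared called 4 of the 20 (276 over all genes), no filter called 2, the likelihood ratio test called 1 and DESeq2 called 0. *Acta1* had 72.3 and 11.3 CPM in GFP libraries, below the YAP6SA library of the same batch each time. It was called in YAP6SA OE CMs in 3 of 9 other fits: the fit of 4 libraries, no filter and the likelihood ratio test. Its log2 value ran from 1.33 without the batch 2 YAP6SA library to 3.05 without that of batch 1. Between the YAP forms, *Acta1* was lower with YAP5SA (log2 -2.33, FDR 0.00359), with 173 and 98.8 CPM in YAP6SA and 61.9 and 12 CPM in YAP5SA libraries. It differed between the batches in every group, and the call was lost without the batch term (log2 -1.89, FDR 0.178). It was still called without the batch 1 or batch 2 YAP6SA library, at -3.13 and -1.41. Of the fast skeletal troponins, *Tnnc2* had 0 counts in the 6 libraries, which allows up to 3 counts or 0.152 to 0.198 CPM for counting error alone. *Tnni2* and *Tnnt3* were above that limit, with 22 to 50 and 18 to 63 counts, and were tested.

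**Figure D4:**
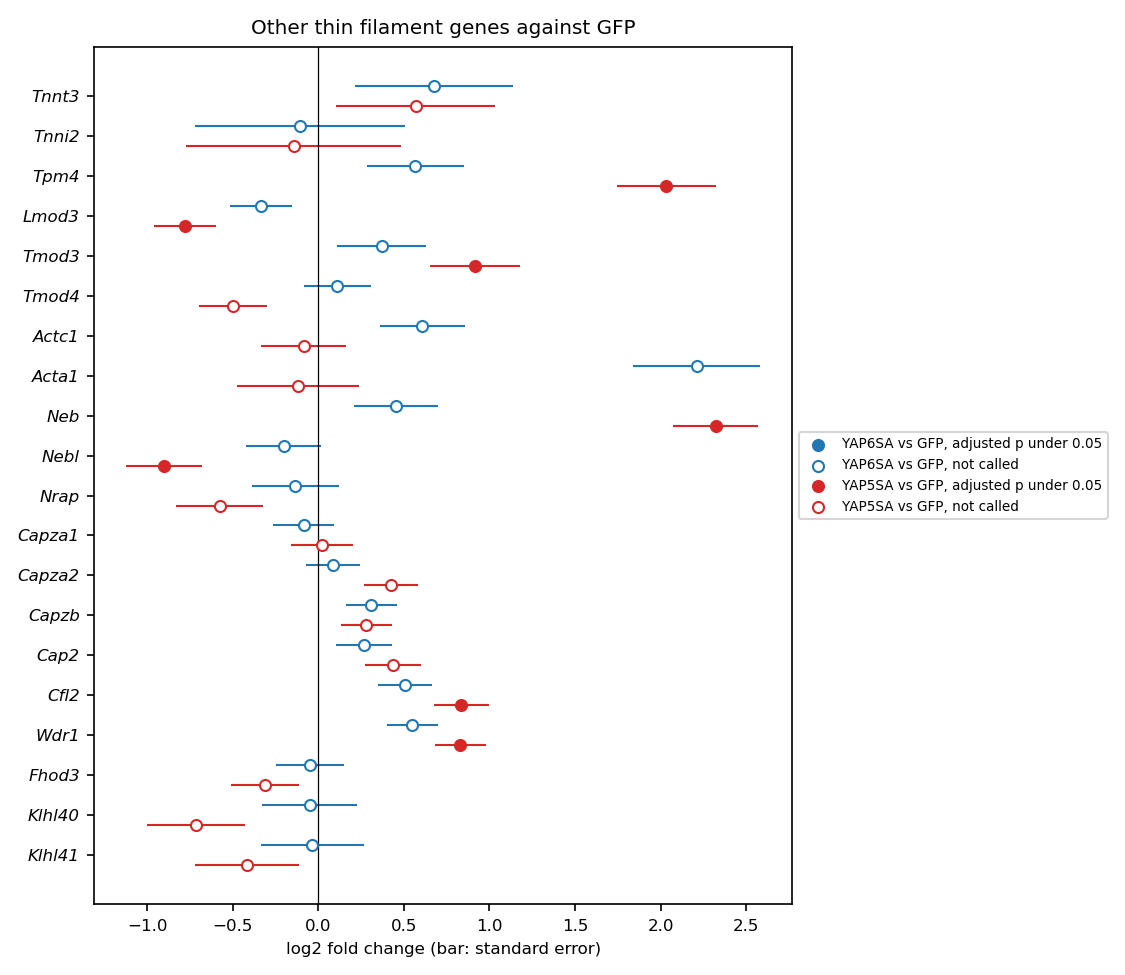
Log2 fold change against GFP (x axis) of 20 other thin filament genes in YAP6SA and YAP5SA OE CMs, with bars of 1 standard error from the edgeR model. Filled points have an adjusted p under 0.05. *Neb* and *Tpm4* are farthest to the right for YAP5SA, at 2.32 and 2.03, and *Acta1* for YAP6SA, at 2.21 and open.

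Markers of other cells were read in the same libraries. Of 10 skeletal muscle markers, 3 of them tested, the myosin genes *Myh1* and *Myh2* rose in YAP5SA OE CMs from 0 counts in all GFP and YAP6SA libraries to 127 and 499 and to 347 and 1041 counts, while *Myod1*, *Myf6* and *Myh4* had 0 counts in the 6 libraries. *Myh1* and *Myh2* passed the filter only through the YAP5SA libraries. *Myog* had 0 counts except for 19 and 52 with YAP5SA. The third gene tested, *Ckm* (muscle creatine kinase, also made in the heart), had 49.7 and 60.9 CPM in GFP, 102 and 87.0 CPM in YAP6SA and 68.3 and 23.5 CPM in YAP5SA libraries, and was lower with YAP5SA than YAP6SA (log2 -1.14, FDR 0.0489). The summed level of the 10 was 50.8 and 61.7 CPM in GFP, 103 and 88.7 CPM in YAP6SA and 103 and 114 CPM in YAP5SA libraries, and *Ckm* was nearly all of it in GFP and YAP6SA. Of 6 smooth muscle markers, 5 of them tested, 3 were higher and 1 lower in YAP5SA than in GFP (12.8% and 9.18% of all genes). *Cnn1*, called higher, had 1.83 and 0.716 CPM in GFP and passed the filter only through the YAP groups, where it was higher. The summed level of the 6 markers was 1210 and 1235 CPM in GFP, 2434 and 2400 CPM in YAP6SA and 2521 and 1852 CPM in YAP5SA libraries. None was at 0 in all libraries, *Tagln* had 1 to 18 counts, and *Smtn* and *Acta2* together held most of the sum in each library. The 2 moved in opposite directions in YAP5SA OE CMs: *Acta2* rose 7.98-fold (FDR 7.97e-05) and *Smtn* fell to 0.569 of GFP (FDR 0.0291). *Acta2* was also 7.09-fold higher in YAP6SA than in GFP (FDR 0.00222), as 1 of the 6 genes called there. The 8 CM markers had negative values in YAP5SA OE CMs against GFP for 7 genes, with 2 called lower (9.18% of all genes), *Ryr2* and *Pln*. *Myh6*, *Mybpc3* and *Ttn* were not called (log2 -1.04, -0.92 and -0.76, FDR 0.0625, 0.0568 and 0.0516). The value of *Myl3* was positive (0.12). The 8 fibroblast markers had 0 called genes by the quasi-likelihood test for YAP6SA against GFP, YAP5SA against GFP and YAP5SA against YAP6SA (0.045%, 22% and 14.7% of all genes). At an unadjusted p under 0.05 there were 3, 3 and 1 in the same order, against 5.93%, 36.4% and 30.8% of all genes. Positive values held for 8, 5 and 0 of the 8. Their summed level was 1363, 857, 1771, 981, 1491 and 903 CPM in the libraries in the order above. Of 5 mural markers tested, 1 was called lower in YAP5SA OE CMs (9.18% of all genes), *Abcc9* (log2 -0.81, FDR 0.0287). *Abcc9*, with 271 and 386 CPM in GFP, held most of the mural sum in each library, which was 304 to 539 CPM. The values of 4 of the 5 were negative, and that of *Rgs5* was positive (0.70, FDR 0.0604). *Pdgfrb*, *Cspg4* and *Kcnj8* were not called (log2 -0.04, -0.13 and -0.25). Which cells the *Abcc9* reads came from was not tested, so its fall does not measure mural cells. Of 6 macrophage markers, 5 of them tested, 2 were called higher (12.8% of all genes), *Lyz2* and *C1qa*. Their sum was 53.1 to 117 CPM over the 6 libraries. The part of these cells in the tropomyosin, *Neb* and troponin values was not tested.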

How the data were processed

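Nuclear RNA was sequenced from PCM1-bound CM nuclei as poly-A, non-directional libraries, 2 each for GFP, YAP6SA and YAP5SA. Reads had been aligned by the authors to mm10 (Ensembl GRCm38.94) using STAR, and the deposited values are raw counts of reads on each gene, neither normalized nor filtered. The STAR version and the counting tool are not given in the sources used here. Since the libraries carry no strand, reads of overlapping genes on both strands were not separable. Ambiguous reads and reads that mapped to several places were tallied apart from the gene counts. Of 54532 genes, 54495 had a GENCODE M21 symbol, and coordinates are from that annotation.

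Genes with a median log2 CPM above 1 in at least 1 group entered edgeR 4.0.16 under R 4.3.3 (quasi-likelihood test at default settings after TMM scaling, with batch and group as terms), and p-values were adjusted by Benjamini-Hochberg. The default is the older form of that test, so the older form listed as an alternative was the fit itself, and the newer form was added once the data had been seen. Other alternatives were DESeq2 size factors or library totals, dropping the filter, requiring 10 counts in each library, the likelihood ratio test, DESeq2 1.42.0, no batch term, fits of 4 libraries, and each library left out. The replicate numbers of the labels are batch numbers and pair the libraries. Deviations from the group means correlated across genes by 0.368 (GFP with YAP6SA), 0.0985 (GFP with YAP5SA) and 0.175 (YAP6SA with YAP5SA). The pipeline was tested on simulated counts with the same dispersion for every gene and no batch effect. Such a test checks the code and does not measure how sure the calls in these libraries are.

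RPKM used the union of annotated exons. Promoter sequences are from RefSeq (GRCm38.p6), for 10 of 10 genes. All 10 genes are named, other thin filament genes when called in any comparison or, for *Actc1* and the fast troponins, after their values were seen. The genes most like *Tpm3* were ranked by Pearson correlation of log2 CPM. The genes, the lists and the markers were chosen with earlier results of these data known. Protein sequences were not used here.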

Additional observations from a re-analysis of the deposited data

How the results depend on the processing

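With 2 libraries in a group, no library could be tested as an outlier, and a library left out leaves a lone one that is assumed to vary like the other groups. Of 450 values of the 10 genes under the alternatives, 391 kept their direction and side of the threshold, 22 came to pass it, 20 no longer passed it and 17 changed sign. Of the 360 values of the 8 other thin filament genes called in any comparison, 325, 22, 10 and 3 did so. No value called in the fit of 6 libraries changed sign. Scaling by library totals moved the median of all genes by at most 0.09 on the log2 scale, and split the calls for YAP5SA against GFP into 1917 higher and 878 lower, where TMM gave 1708 and 1223.

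The batch term is the replicate block. With no replicate block, 3 of the 10 genes were called for YAP5SA against GFP in place of 5 and 2 for YAP5SA against YAP6SA in place of 3, and over all genes 0 for YAP6SA against GFP (6 with it), 1152 for YAP5SA against YAP6SA (1956 with it) and 2090 for YAP5SA against GFP (2931 with it). For YAP6SA against GFP, 1 of the 10 genes and 2 of the other thin filament genes were called with no filter, 1 and 0 by DESeq2, 0 and 1 by the likelihood ratio test and 1 and 4 in the fit of 4 libraries, and over all genes 145, 55, 82 and 276. For YAP5SA against YAP6SA, 6 of the 10 genes and 6 of the others were called with no filter and 5 and 6 by the likelihood ratio test, and 5 of the others by DESeq2. Over all genes, the calls in these fits were 2752, 2763 and 2076, against 1956 by the quasi-likelihood test with the filter.

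With 1 library left out, the calls among the 10 genes ran from 0 to 1 for YAP6SA against GFP, from 1 (without the batch 2 GFP library) to 8 (without the batch 1 YAP5SA library) for YAP5SA against GFP, and from 0 (without the batch 2 YAP6SA library) to 7 (without the batch 1 YAP5SA library) for YAP5SA against YAP6SA. Those among the others ran from 0 to 3, 2 to 12 and 2 to 12, and those over all genes from 6 to 213, 738 to 4863 and 396 to 4160. The cause was not tested.

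Signs changed only for values that were not called. *Tnnc1* for YAP5SA against GFP was -0.000804 with DESeq2 size factors and -0.00081 by DESeq2, and the other changes came with 1 library left out. For YAP6SA against GFP, the values without a library ran from -0.33 to 0.089 for *Tnnt1*, -0.30 to 0.42 for *Tnnt2*, -0.22 to 0.49 for *Tnni1*, -0.33 to 0.24 for *Tnni3*, -0.21 to 1.05 for *Tpm2*, -0.26 to 0.16 for *Tpm3*, -0.034 to 0.39 for *Tmod1* and -0.45 to 0.077 for *Nebl*. For YAP5SA against GFP they ran from -0.81 to 0.065 for *Tnnt2*, -0.012 to 0.54 for *Tnni1*, -0.14 to 0.17 for *Tnnc1* and -0.57 to 0.58 for *Acta1*, and for YAP5SA against YAP6SA from -0.24 to 0.47 for *Tnni1*.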
